A study of Mus musculus with 2 samples.

Results

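Hair cells turn sound into electrical signals through a bundle of stereocilia, which are rods of cross-linked actin that stand in rows on the apical surface and are joined at their tips by fine protein links. Myosin motors carry cargo along these rods, scaffold proteins of the Usher syndrome family hold the tip links to the actin core, and calcium-binding proteins and pumps remove the calcium that enters through the transduction channel. Loss of many of these proteins causes deafness in mice and humans. A list of 36 such genes was followed on 2 Affymetrix MOE430A arrays of mouse cochleae at embryonic day 18.5 (E18.5), chosen by gene symbol and not by level. Of these, 28 were read by at least 1 probe set naming that gene alone, among 12393 genes measured. *Myo3a*, *Whrn*, *Tmie*, *Ptprq*, *Fscn2*, *Chrna9*, *Atp2b1* and *Cib2* had no such probe set in the platform annotation and are not analysed here.

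The study compared *Igf1* null and wild-type embryos from crosses of heterozygous C57BL/6J mice, with the otic capsule left on the cochlea and the vestibular part removed. The null carries a germline targeted disruption of *Igf1*. Each array read RNA pooled from 8 cochleae per its label, whereas the methods give pools from 2 embryos. The labels of both arrays contradict themselves: 1 is titled −/− but carries Igf-1 +/+ as its source name and in its description, and the other is titled +/+ with Igf-1 -/- in those fields. They are called the −/− array and the +/+ array after their titles alone, the genotype behind each is open, and every sign given here turns if the source names are the correct ones. *Igf1* itself, the disrupted gene, was at 11.03 on the −/− array and 11.42 on the +/+ array, and which of its exons the null lacks is not given in the labels or methods, so this reading does not settle the genotype. With 1 column per title no replicate was available, no test was possible, and values were placed beside those of all genes.

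Levels are on the log2 scale as deposited, where the lowest values are listed at exactly 0. The median over all genes was 7.13 on the −/− array and 7.09 on the +/+ array. Each difference is −/− array minus +/+ array, centred on the median difference of all probe sets, 0.022. Genes were divided by mean level into 3 classes of equal size, low (below 5.73), middle and high (from 8.02). Repeat readings existed only where a gene had several probe sets. For the spread, each probe set was classed by its own level. The pooled SD of the differences of probe sets sharing gene and class was 1.08 in the low class, 0.22 in the middle class and 0.096 in the high class. Probe sets of a gene that fell in different classes did not enter against each other, so that these SDs leave out that part of the spread. A level also depends on the probes, so that genes are set against the array median and not against each other.

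Of the 28 genes measured, 13 were above the median on both arrays, as were 48.5% of all genes. *Tub* was above it on the −/− array alone and *Myh14* on the +/+ array alone, and 13 genes were below it on both. The split went with an assigned label of breadth of expression, which was not measured here and may not hold for every gene. Of 12 members labelled as broad, such as the actins, *Msn* and *Myh9*, 11 lay above the median on both arrays. Of 16 members labelled as restricted to hair cells, neurons or a few other cell types, only *Myo6* and *Calb1* did so. In bulk tissue, fewer hair cells and less RNA per hair cell cannot be told apart.

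The members went in both directions. There were 16 genes higher and 12 lower on the −/− array, where 50.5% of all genes were higher and 49.5% lower. Their median difference was 0.0070, against 0.0028 over all genes. One gene, *Tmc1*, was higher by at least 1 log2 unit, a size that 5.54% of all genes reached in this direction. One other, *Slc26a5*, was lower by at least 1 log2 unit, as were 4.07% of all genes. Both lay in the low class, where 27.5% of genes differed by at least 1 log2 unit in either direction. At a limit of 0.5, *Tmc1*, *Espn*, *Tub* and *Ush1c* were higher, 4 of 28 members beside 12% of all genes, and *Slc26a5* was lower, beside 8.6%. Members of the high class differed least, with a median absolute difference of 0.32 for the 8 members in the low class, 0.28 for the 8 in the middle class and 0.079 for the 12 in the high class. Over all genes these medians were 0.55, 0.15 and 0.086, in the same order, so that the members of the middle class differed by more than genes of that class did in the median.

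**Figure D1:**
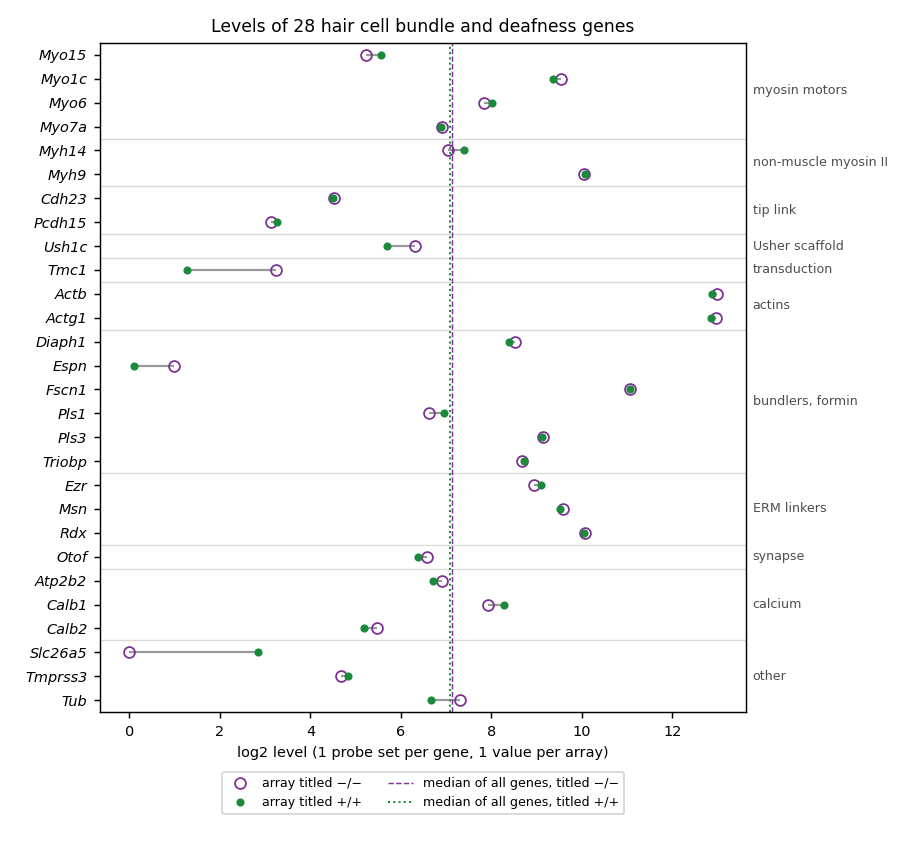
Log2 level (horizontal axis) of 28 hair cell bundle and deafness genes, grouped by role, on the −/− array (open purple) and the +/+ array (filled green), with 1 value per array, joined by a grey line. The vertical lines mark the median over all genes, 7.13 on the −/− array and 7.09 on the +/+ array, and 13 genes lie to the right of both while *Tmc1* and *Slc26a5*, far to the left, have the longest grey lines.

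**Figure D2:**
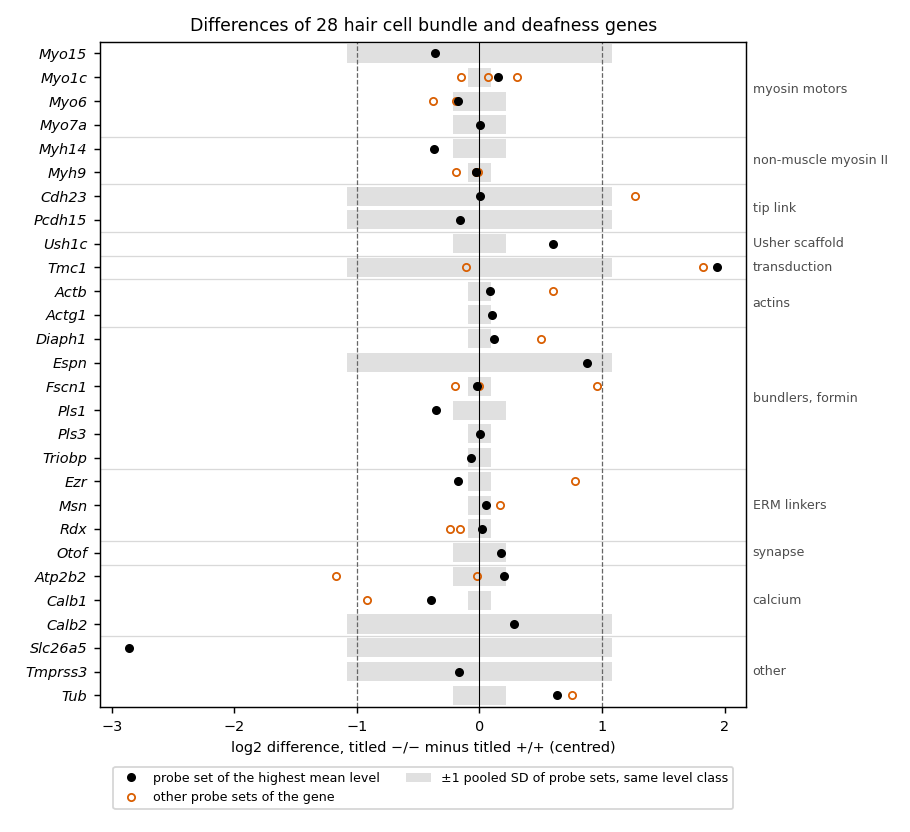
Log2 difference, −/− array minus +/+ array (horizontal axis), of the same 28 genes, with its probe set of highest level in black, other probe sets of the gene as open orange circles, and dashed lines at 1 and −1. Grey bars span 1 pooled SD between probe sets of a gene on each side of 0, in the level class that holds the black point (1.08, 0.22 or 0.096), and *Ush1c*, *Tub*, *Calb1* and *Slc26a5* are the black points farther than 2 such SDs from 0.

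More than 2 pooled SDs of their class separated the arrays for 4 of the 28 members, 2 higher and 2 lower on the −/− array, beside 6.08% of all genes higher and 4.52% lower. One of them was *Slc26a5*, near the floor, and the other 3 were among the 20 members of the middle and high classes. *Ush1c* and *Tub* were higher on the −/− array, where 7.54% of the genes in these classes were higher by as many SDs, and *Calb1* was lower, as were 5.46%. Each of the 3 is described with the genes of its role.

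The motors of the bundle showed small differences. *Myo7a*, the Usher syndrome motor at the upper end of the tip link, was at 6.91 on the −/− array and 6.89 on the +/+ array, a difference of 0.0076. *Myo6*, which moves towards the base of the stereocilia and anchors their membrane there, was at 7.85 on the −/− array and 8.00 on the +/+ array. All 3 of its probe sets were lower on the −/− array, by −0.18, −0.19 and −0.38, the last at a level below 5. *Myo15*, whose motor carries whirlin to the stereocilia tips, was at 5.22 on the −/− array and 5.56 on the +/+ array. Its difference of −0.36 was smaller than the SD of its class, and 62.7% of genes in that class differed by as much. *Myo1c*, a motor linked to adaptation of the transduction channel and used in most cells, was at 9.54 on the −/− array and 9.37 on the +/+ array. Its probe sets did not share a direction, with differences of 0.15, 0.068, −0.15 and 0.30 from the highest level to the lowest.

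Non-muscle myosin II, which contracts actin at cell junctions and in the cell cortex, was represented by 2 heavy chain genes, both linked to dominant deafness. *Myh9* was at 10.06 on both arrays, and its 4 probe sets differed by −0.027, −0.19, −0.026 and −0.012 after centring. The last of these was higher on the −/− array by its levels, at 6.79 on the −/− array and 6.78 on the +/+ array. *Myh14* was at 7.05 on the −/− array and 7.39 on the +/+ array. The difference of −0.37, from 1 probe set, amounted to −1.68 pooled SDs of the middle class, and 14.0% of genes in that class differed by as much.

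The cadherins of the tip link were read in the low class. *Cdh23*, its upper part, was at 4.52 on the −/− array and 4.50 on the +/+ array for the stronger probe set, while the weaker one was at 4.36 on the −/− array and 3.07 on the +/+ array. *Pcdh15*, the lower part of the link, was at 3.12 on the −/− array and 3.26 on the +/+ array. The stronger probe set of *Cdh23* thus differed by 0.0065 and *Pcdh15* by −0.16, less than the SD of 1.08 between probe sets at such levels. The weaker probe set of *Cdh23* differed by 1.27, more than that SD, so that the 2 readings of this gene are unlike.

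*Ush1c* encodes harmonin, the scaffold that binds the tail of cadherin 23 and fixes it to the actin core. It was at 6.32 on the −/− array and 5.70 on the +/+ array, below the median on both. The difference of 0.60, or 1.52-fold, was 2.74 pooled SDs of the middle class and was reached in size by 4.28% of the genes there. It rests on 1 probe set, so that no second reading of this gene was available. The study had selected *Ush1c* on its own arrays, and this value is not independent evidence of its direction.

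*Tmc1*, a pore-forming subunit of the transduction channel that in mice becomes prominent after birth, was at 3.23 on the −/− array and 1.27 on the +/+ array. The second probe set was at 1.84 on the −/− array and listed at 0 on the +/+ array, and the third was at 0.78 on the −/− array and 0.87 on the +/+ array. The first probe set thus differed by 1.94 and the third by −0.11. In the low class 8.38% of genes differed by as much as the first, and with all values below the 25th percentile of an array set to it no difference was left.

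Actin and its cross-linkers make up the rods themselves. *Actb*, which encodes β-actin, was at 12.98 on the −/− array and 12.88 on the +/+ array. *Actg1*, the γ-actin gene mutated in a dominant deafness and read here by a probe set ending in _s_at, which can match more than 1 transcript, was at 12.98 on the −/− array and 12.86 on the +/+ array. Both were thus near the upper end of the arrays, with differences of 0.087 and 0.099 that became −0.027 and −0.011 after quantile normalization. A second *Actb* probe set, of lower level, was at 9.19 on the −/− array and 8.56 on the +/+ array, and its difference of 0.60 exceeded the SD of its class by far. The control probe sets for β-actin gave 0.055 at the 5′ end, 0.021 in the middle and 0.081 at the 3′ end, near the value of the stronger *Actb* probe set. The 18S rRNA controls on the same arrays were higher on the −/− array, by 0.88 at the 5′ end, 0.73 in the middle and 0.74 at the 3′ end, and the part of this difference in those of the members was not tested.

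Serum response factor, a transcription factor known to control actin genes, binds the CArG box, a run of A and T between CC and GG. The window from 250 bases before to 50 bases after the start of transcription was searched in the RefSeq promoters of GRCm38.p6, where 23 of the 28 members had an entry and *Actb*, *Calb1*, *Calb2*, *Diaph1* and *Otof* had none. The CArG box, which reads the same way on both strands, was found in 1.63% of 32851 promoters and in that of 1 member, *Actg1*, from 90 to 81 bases before the start. The site is shown as the only match among the members, at chr11:120348566-120348595 on the minus strand, with the CArG box in capitals.
Actg1: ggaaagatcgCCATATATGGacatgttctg
The MEF2 site, named after the factor that the study examined, was found in 0.557% of all promoters and in none of the 23 members with an entry. This says only that those letters are not in these windows.

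The genes whose proteins bundle actin or promote its growth were spread over all 3 level classes. *Fscn1*, a bundler with broad expression, was at 11.07 on both arrays, and its weaker probe sets differed by −0.00078, −0.20 and 0.96, the last at a mean level of 4.22. *Pls3*, a plastin with broad expression, was at 9.14 on the −/− array and 9.11 on the +/+ array, a difference of 0.00036. *Pls1*, the plastin that is more abundant in stereocilia, was at 6.62 on the −/− array and 6.95 on the +/+ array. Its difference of −0.35 was −1.61 pooled SDs of the middle class, while that of the other plastin was 0.0038 pooled SDs of the high class.
*Triobp*, whose product packs the actin rootlets at the base of the stereocilia, was at 8.68 on the −/− array and 8.73 on the +/+ array. *Diaph1*, a formin gene linked to a dominant form of deafness, whose product elongates actin, was at 8.52 on the −/− array and 8.38 on the +/+ array. Its second probe set differed by 0.50. *Espn*, the espin gene, whose product bundles actin in stereocilia, was at 0.995 on the −/− array and 0.097 on the +/+ array. Both *Espn* values lay next to the floor of the arrays, where its difference of 0.88 was within the SD of 1.08.

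The ERM proteins tie the membrane to actin, and radixin is the one that is concentrated in stereocilia. *Rdx*, its gene, was at 10.08 on the −/− array and 10.04 on the +/+ array, and its other probe sets differed by −0.16 and −0.24. *Ezr*, the ezrin gene, was at 8.95 on the −/− array and 9.10 on the +/+ array. A second *Ezr* probe set, ending in _x_at and thus open to cross-hybridization, was at 7.34 on the −/− array and 6.54 on the +/+ array, so that *Ezr* has no common direction. *Msn*, the moesin gene, was at 9.59 on the −/− array and 9.51 on the +/+ array, and both of its probe sets were higher on the −/− array, by 0.056 and 0.17.

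*Otof*, which encodes the calcium sensor for vesicle release at the hair cell ribbon synapse, was at 6.57 on the −/− array and 6.38 on the +/+ array. The difference of 0.17 was within 1 pooled SD of the middle class, and 42.7% of genes there differed by as much.

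The genes of calcium handling went in different directions. *Calb1*, the gene of the calcium buffer calbindin, was at 7.92 on the −/− array and 8.29 on the +/+ array. This difference of −0.39, or 0.76-fold, was −4.10 pooled SDs of the high class, and 3.46% of genes there differed by as much. Its mean level of 8.10 was close to the lower bound of that class, and against the SD of the middle class the difference was −1.79 SDs. The second *Calb1* probe set was at 3.93 on the −/− array and 4.83 on the +/+ array, so that both were lower on the −/− array. *Calb2*, which encodes calretinin, was at 5.48 on the −/− array and 5.17 on the +/+ array, and its difference of 0.28 was within the SD of the low class. *Atp2b2*, the calcium pump of the stereocilia membrane, was at 6.92 on the −/− array and 6.70 on the +/+ array. Its second probe set was at 1.96 on the −/− array and 3.12 on the +/+ array, opposite to the first, and the third was listed at 0 on both.

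*Slc26a5*, the gene of prestin, the motor protein of outer hair cells that in mice rises after birth, was listed at 0 on the −/− array and was at 2.83 on the +/+ array. A value of 0 gives no fold, and with values raised to the 25th percentile of each array no difference was left. *Tmprss3*, a membrane protease whose loss causes deafness in mice and humans, was at 4.69 on the −/− array and 4.83 on the +/+ array, within the SD of its class. *Tub*, the tubby gene, whose loss leads to degeneration in the retina and cochlea, was at 7.31 on the −/− array and 6.66 on the +/+ array. The difference of 0.63, or 1.55-fold, was 2.89 pooled SDs of the middle class, 3.53% of genes there differed by as much, and the second *Tub* probe set was higher by 0.75. Among the 15 members above the median on at least 1 array, *Tub* was the only one higher by at least 0.5, as were 2.3% of all such genes, and none was lower by as much, as were 0.83%. *Tub*, like *Ush1c*, had been selected by the study on its own arrays.

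**Figure D3:**
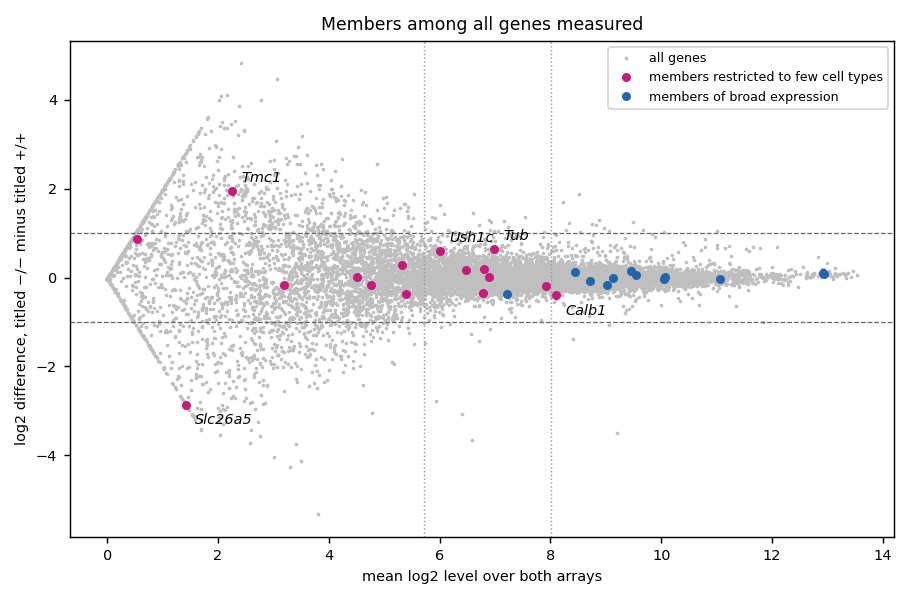
Log2 difference, −/− array minus +/+ array, against the mean log2 level of both arrays for all 12393 genes (grey). Members labelled as restricted to few cell types are in pink and members labelled as broad in blue. Dotted lines mark the level classes at 5.73 and 8.02, dashed lines differences of 1 and −1, and the named members are those past 1 log2 unit or, from the middle class upwards, past 2 pooled SDs.

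Of 14 members with several probe sets, 6 gave readings of opposite sign, *Atp2b2*, *Ezr*, *Fscn1*, *Myo1c*, *Rdx* and *Tmc1*, beside 53.7% of all such genes. The other 8, among them *Myo6*, *Calb1*, *Tub* and *Myh9*, had 1 direction throughout after centring, which for the weakest *Myh9* probe set turned the sign.

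Markers of cell types were set beside these values. Hair cell markers had 9 of 11 genes measured, 3 of them members, with differences from −0.24 to 0.18 and a median of 0.0065. That median is the value of the stronger probe set of *Cdh23*, which is 1 of the 3 members and lies in the low class. The weaker probe set of *Cdh23* differed by 1.27. *Atoh1*, the transcription factor that starts hair cell differentiation, was at 6.39 on the −/− array and 6.58 on the +/+ array, and *Pou4f3*, needed for hair cell survival, at 4.97 on the −/− array and 5.03 on the +/+ array. *Pvalb*, which muscle also expresses, was the only hair cell marker above the median, on both arrays, and none was listed at 0. The 8 supporting cell markers had a median difference of −0.052, and 4 of them, *Sox2*, *Fgfr3*, *S100a1* and *Sparcl1*, lay above the median on both arrays. Of 8 genes that mark cochlear tissue, 7 were above the median on both arrays and 7 were lower on the −/− array, with a median of −0.31. The tectorin genes *Tecta* and *Tectb*, for the tectorial membrane over the hair bundles, differed by −0.52 and −0.64. Of 4 genes listed as vestibular markers, 2 were measured, both above the median on both arrays. The labels leave vestibular tissue out, and whether these levels come from vestibular or cochlear tissue was not tested. *Oc90*, an otoconial protein gene, was at 11.32 on the −/− array and 11.23 on the +/+ array. *Otoa* went the other way, at 7.25 on the −/− array and 7.44 on the +/+ array.

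The lists of hindbrain and neuron, skeletal muscle and lung genes had larger median differences than the members. Neurons are also part of the cochlea, in the auditory ganglion. Of 12 genes of hindbrain and neurons, 8 were higher on the −/− array, with a median difference of 0.36 and median levels of 9.60 on the −/− array and 9.01 on the +/+ array. *Tub*, *Calb1*, *Calb2*, *Atp2b2* and *Fscn1* are also expressed in neurons, and of these *Tub*, *Calb2* and the strongest probe set of *Atp2b2* were higher on the same array while *Calb1* and *Fscn1* were lower. Without the *Zic* genes of the hindbrain, 5 of the 9 other genes of this list were higher and 4 lower, with a median of 0.22. All 9 skeletal muscle genes were higher on the −/− array, with a median of 1.05, and all 6 lung epithelial genes were lower, with a median of −3.57. None of these markers was listed at 0, and their part in the differences of the members was not tested.

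**Figure D4:**
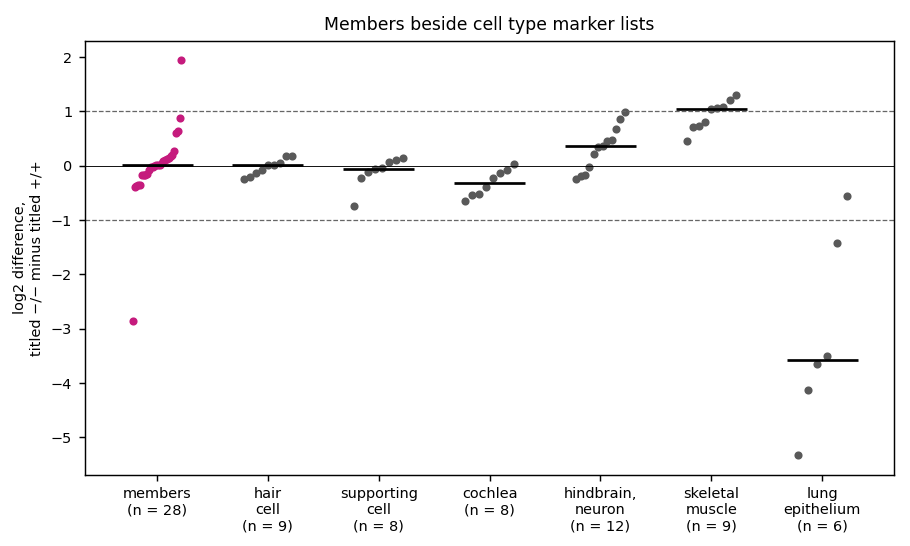
Log2 difference, −/− array minus +/+ array, of the 28 members (pink) and of the genes of 6 marker lists (grey), with 1 point per gene, sorted within each list, the median as a black bar and dashed lines at 1 and −1. The members (median 0.0070) and the hair cell markers (median 0.0065) lie closest to 0. Of the hair cell markers, 3 are also members, and the marker median is the value of 1 of these, *Cdh23*, by its stronger probe set. The medians of the cochlea (−0.31), hindbrain and neuron (0.36), skeletal muscle (1.05) and lung (−3.57) lists lie farther from 0.

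A wider set of 43 further genes of the hair bundle and of hair cell deafness had 23 measured, with a median difference of 0.033. Of the 23, 15 were higher and 8 lower on the −/− array, beside 50.5% and 49.5% of all genes. In this set 7, or 30.4%, lay above the median on both arrays, against 48.5% of all genes. None of the 7 differed by 0.5 or more. Of all genes above the median on at least 1 array, 2.3% were higher and 0.83% lower by as much. *Capzb*, which caps actin filaments, and *Gnai3*, a G protein subunit that shapes the bundle, were read at the highest levels of this set and differed by 0.033 and 0.0029. *Kcnn2*, the potassium channel of efferent inhibition in hair cells, was the only gene of this set past 1 log2 unit. It was at 5.34 on the −/− array and 4.30 on the +/+ array, below the median on both. In the low class, which holds it, 27.5% of genes differed by at least 1 log2 unit. *Tmc2*, the early partner of *Tmc1*, was at 0.54 on the −/− array and 0.18 on the +/+ array, and *Cabp2* was listed at 0 on both arrays.

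Of 27 further genes of the actin cytoskeleton, 26 were measured, with a median of 0.052. Of the 26, 15 were higher and 11 lower on the −/− array, beside 50.5% and 49.5% of all genes. The muscle actin genes were higher there, *Acta1* by 0.45, *Actc1* by 0.69, *Acta2* by 0.47 and *Actg2* by 0.60, whereas the cytoplasmic actins *Actb* and *Actg1* differed by 0.087 and 0.099 for their strongest probe sets, both below 0 after quantile normalization. The thymosin genes *Tmsb10* and *Tmsb4x* differed by 0.079 and 0.11, the cofilin gene *Cfl1* by 0.078 and the profilin genes *Pfn1* and *Pfn2* by −0.026 and 0.11. The only genes of this set past 1 log2 unit were *Vil1* and *Fscn3*, at 2.02 and −1.34, both below the median on both arrays. Both lay in the low class, where 27.5% of genes differed by at least 1 log2 unit.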

How the data were processed

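The authors hybridised biotin-labelled cRNA to MOE430A arrays and deposited log2 levels per probe set. In the methods MAS5.0 and RMA came first and multi-mgMOS gave the levels used for selection, and the program behind the deposited table is not stated in those sources. Base 2 was inferred, since the maximum of 13.6 lies above the natural log of the largest 16-bit intensity, 11.1. Scaling between the arrays is not stated.

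Of 22690 probe sets, 64 controls were left out. Of the rest, 20380 named 1 gene, 691 several and 1555 none in the platform annotation, and 20351 matched RefSeq (GRCm38.p6). Each gene was represented by its probe set of highest mean level. All members are named, and of further lists the genes past 1 log2 unit above the median and up to 2 of the highest level, plus *Kcnn2*, *Tmc2*, *Cabp2*, *Atoh1*, *Pou4f3*, *Pvalb*, *Oc90*, the tectorin, supporting cell and actin genes and those named beside counts of 5 or fewer, chosen after their values were seen. The lists of muscle, lung, and hindbrain and neuron genes are given by counts and medians. Of their genes only *Acta1*, also an actin gene, is given with its value. Members and lists were chosen with earlier results of these data known. The limit of 1 log2 unit is that of the methods, whose PPLR probability was not applied. The limits of 0.5 and of 2 pooled SDs, the latter added after the data were seen, and other scalings, floors and probe set rules were alternatives. Centring, quantile normalization and loess were tested on simulated arrays, with changes placed only in probe sets of higher level. The choice of probe set, the level classes and the counts were not tested in this way. The number of arrays limits the precision. Python 3.11.15, numpy 2.4.6, pandas 2.3.3, statsmodels 0.14.6 and matplotlib 3.10.9 were used.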

Additional observations from a re-analysis of the deposited data

How the results depend on the processing

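The count of 1 member higher and 1 lower by at least 1 log2 unit held without centring, after quantile normalization and loess, with probe sets averaged and without those ending in _x_at or _s_at. It was 0 and 0 with values raised to the 25th percentile and among genes above the median on at least 1 array. It was 4 higher and 1 lower at a limit of 0.5, and 2 higher and 2 lower at 2 pooled SDs. The members' median difference stayed between −0.025 (quantile normalization) and 0.050 (mean over probe sets), and 13 to 17 members lay above the array median. Averaging probe sets could change only the 14 members that have several. It moved 7 of these 14 differences by more than the SD of their level class and turned the sign of *Rdx*, *Ezr*, *Fscn1* and *Atp2b2*. Quantile normalization turned the signs of *Myo7a*, *Cdh23*, *Actg1*, *Actb* and *Pls3*. The cause was not tested. No paired analysis was possible because there is 1 column of values per title.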
